A study of Mus musculus with 15 samples.

Results

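Most of the genes described here encode initiation and elongation factors of protein synthesis in the cytosol. These proteins bring ribosomes to messenger RNA and move them along it. The rest encode kinases, inhibitors, partners and a methyltransferase that are named after these factors. All were chosen by name, as every gene on the array whose symbol starts with Eif or Eef and a digit. Each had to have a probe set assigned to that symbol alone. Of 8251 genes read by the arrays, 49 met this rule, through 66 probe sets, and each gene was represented by its probe set with the highest mean intensity. A total of 41 were bright enough to be tested. The other 8 (Eef1g, Eef2k, Eif2ak2, Eif2ak3, Eif2s2, Eif2s3y, Eif4e and Eif4enif1) lay among the dimmest 40% of genes, which were left out of the tests.

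The study measured RNA from whole mouse hearts on 15 arrays in order to compare hearts without MAT1 in their muscle cells with control hearts. MAT1, the product of Mnat1, assembles the kinase module of the transcription factor TFIIH. Knockout hearts had both Mnat1 alleles floxed and carried αMHC-Cre+/0, a single Cre transgene under the alpha-myosin heavy chain promoter, which is active in cardiomyocytes and leaves other heart cells with the gene. Control littermates carried αMHC-Cre+/0 as well and were MAT1F/+, so that all animals had Cre and at least 1 floxed allele. Hearts were taken at 2 weeks (3 control and 4 knockout arrays) and at 4 weeks of age (3 control and 5 knockout arrays). The labels name neither strain nor sex, and they do not state that each array is a different animal. By Xist and Uty every group held arrays inferred female and arrays inferred male, so no group came from a single animal. Some arrays may still share an animal, and the p-values may then reflect technical spread in part.

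Initiation begins when eIF2 brings the initiator tRNA to the small ribosomal subunit together with eIF1, eIF1A, eIF3 and eIF5. The eIF4F complex (the cap-binding protein eIF4E, the scaffold eIF4G and the helicase eIF4A) recruits that subunit to capped mRNA, and 4E-BP proteins hold eIF4E back. eIF2B recharges eIF2 with GTP, and kinases that phosphorylate eIF2 alpha block this step under stress. During elongation eEF1A delivers aminoacyl-tRNA, eEF1B recharges eEF1A, and eEF2 moves the ribosome on by one codon. Heart muscle is known to replace eEF1A1 with its paralog eEF1A2 after birth. The helicase paralogs eIF4A1 and eIF4A2 are also known to differ in where they are expressed.

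Promoters of these paralog pairs, and of the eIF3 subunits Eif3b and Eif3l whose signal rose together at 4 weeks, are shown for reference because the results turn on these genes. RefSeq promoter windows (250 bases before to 50 after the annotated start, assembly GRCm38.p6) were found for 41 of the 49 genes, 56 windows in all. The stretches below run 5′ to 3′ from 100 bases before to 30 after a start. Capitals mark GGGCGG, the core of a GC box, and CCAAT, each on either strand, where CCGCCC is the GC box read on the other strand. The stretches lie at chr9:78481695-78481824 (Eef1a1, minus strand), chr2:181156986-181157115 (Eef1a2, minus strand), chr11:69672394-69672523 (Eif4a1, minus strand), chr16:23107368-23107497 (Eif4a2, plus strand), chr5:140419205-140419334 (Eif3b, plus strand) and chr15:79075123-79075252 (Eif3l, plus strand).
Eef1a1: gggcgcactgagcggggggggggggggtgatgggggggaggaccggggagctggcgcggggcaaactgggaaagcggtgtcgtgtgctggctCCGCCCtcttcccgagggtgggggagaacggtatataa
Eef1a2: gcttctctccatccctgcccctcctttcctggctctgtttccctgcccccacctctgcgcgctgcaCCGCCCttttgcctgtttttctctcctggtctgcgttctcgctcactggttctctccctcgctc
Eif4a1: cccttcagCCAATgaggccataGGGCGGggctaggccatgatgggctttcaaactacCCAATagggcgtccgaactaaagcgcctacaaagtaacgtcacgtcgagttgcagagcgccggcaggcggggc
Eif4a2: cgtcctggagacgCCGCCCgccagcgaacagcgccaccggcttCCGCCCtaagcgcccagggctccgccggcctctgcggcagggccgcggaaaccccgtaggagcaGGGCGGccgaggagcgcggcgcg
Eif3b: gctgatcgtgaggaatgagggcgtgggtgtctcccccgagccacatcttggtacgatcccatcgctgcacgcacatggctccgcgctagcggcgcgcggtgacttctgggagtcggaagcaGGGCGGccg
Eif3l: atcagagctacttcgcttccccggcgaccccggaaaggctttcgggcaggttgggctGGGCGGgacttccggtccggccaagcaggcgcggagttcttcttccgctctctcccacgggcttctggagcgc
All 6 stretches held a GC box, those of both members of each paralog pair included, and the GC box of Eif3b lay after its start. How many stretches of all genes hold a GC box was not counted. Of the 6 stretches only that of Eif4a1 held CCAAT, which the full window of Eif3l held as well. Over the full 300-base windows, GGGCGG on either strand was in 38 of the 56 windows of these genes (67.9%) against 35.7% of all 32851 windows. The E-box CACGTG was in 12 (21.4%, against 7.15%), CCAAT in 13 (23.2%, against 37.4%) and TATAAA in 4 (7.14%, against 13.6%). These counts describe letters in a window and not binding.

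Correlating the arrays with each other divided them into 2 sets, of 6 and 9 arrays, which the labels do not mention. Each set held arrays of all 4 groups, and set 1 had 1 control and 2 knockout arrays at each age. Fits with the array set as a block are therefore given beside the fits without it. The set difference touched many genes, among those here and among all those tested. Its median size was 0.501 on the log2 scale over the 41 tested genes, against 0.441 over all 4950 tested genes. It passed 1 for 6 of the 41 and for 577 of the 4950. It was 1.32 for Eif3k and 1.20 for Eef1d but 0.08 for Eef1a1 and 0.00 for Eif4a2. The 2 Mnat1 probe sets were dim, and no label or table says where they lie relative to the deleted part. At 4 weeks the brighter one ran from 85.96 to 243.8 on control arrays and from 140.7 to 314.3 on knockout arrays, and the dimmer one from 40.07 to 79.2 and from 38.92 to 78.34. Within each array set every knockout array of the brighter probe set was above every control array, and with the block it was higher in knockout hearts (0.45 ± 0.15, adjusted p = 0.0384 over all probe sets), against the direction of a deletion. The dimmer one differed by -0.03 ± 0.27 (adjusted p = 0.994). At 2 weeks the dimmer one ran from 41.4 to 86.25 on control arrays and from 23.67 to 52.03 on knockout arrays. Within each array set every knockout array of it was then below every control array, the direction of a deletion. It was not called (-0.47 ± 0.28, and -0.55 ± 0.22 with the block, adjusted p = 0.912). The brighter one differed by 0.16 ± 0.49 at 2 weeks, and by -0.04 ± 0.16 with the block. Mnat1 thus does not settle the labels, and knockout means a heart labelled as one. By Xist and Uty, 4 of 5 knockout arrays but 1 of 3 control arrays at 4 weeks were inferred female.

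**Figure D1:**
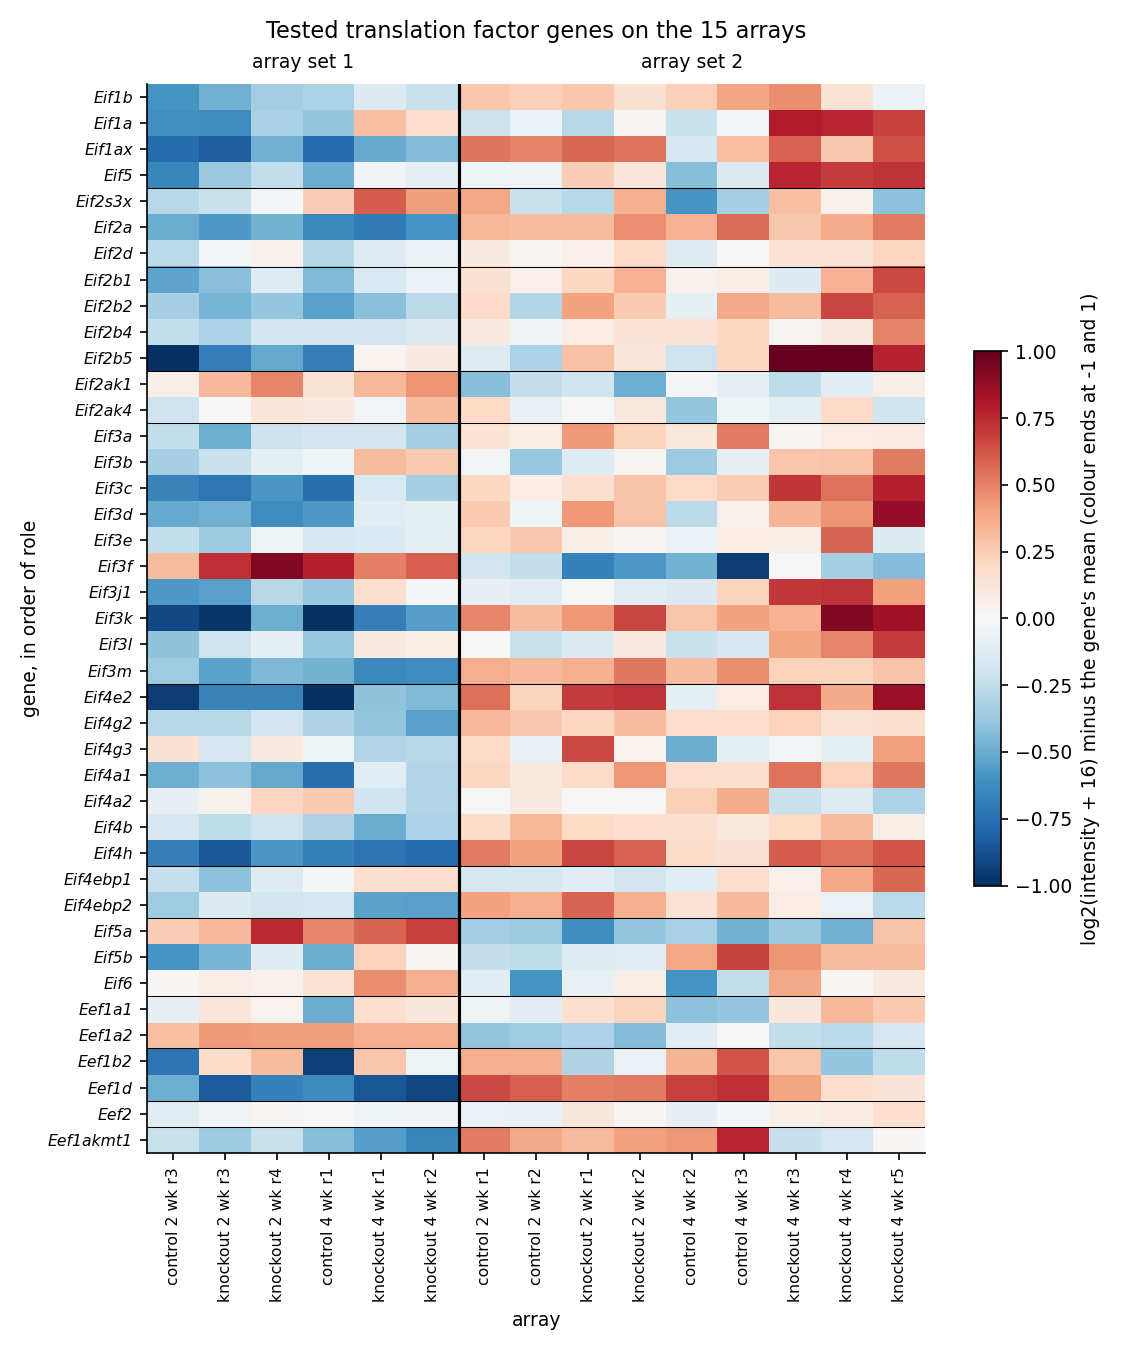
Heat map of log2(intensity + 16) minus each gene's mean for the 41 tested genes (rows, in order of role, lines between roles) on the 15 arrays (columns, by array set, group and replicate). Eef1d and Eif3k are low throughout set 1 and high throughout set 2, and Eef1a1 and Eif4a2 show no such step.

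At 4 weeks, 5 of the 41 tested genes differed between knockout and control hearts (limma, adjusted p under 0.05 over all 4950 genes). The elongation factor gene Eef1a1 and the initiation factor genes Eif1a, Eif3b and Eif3l were higher in knockout hearts, and the helicase gene Eif4a2 was lower. Over all tested genes, 11.2% were called, 6.63% higher and 4.61% lower, so 5 of 41 (12.2%) is close to the background. The median difference was 0.20 over the 41 genes and 0.09 over all tested genes, and 28 of the 41 differences were above 0 against 60.9% of all genes. When the array set was added as a block, 19 of the 41 were called (46.3%), 15 higher and 4 lower, where 35.5% of all genes were called, 23.3% higher and 12.2% lower. All 19 had the same sign within set 1 and within set 2. The block fit pools the differences within the sets, so genes it calls tend to agree in sign, and this is not separate support. How many of all tested genes agree in sign, or have groups without overlap within each set, was not counted. The scaling of the arrays moves the balance of calls: 328 genes were higher and 228 lower as deposited, against 241 and 308 after quantile normalization, which moved the median of all genes from 0.09 to -0.01.

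**Figure D2:**
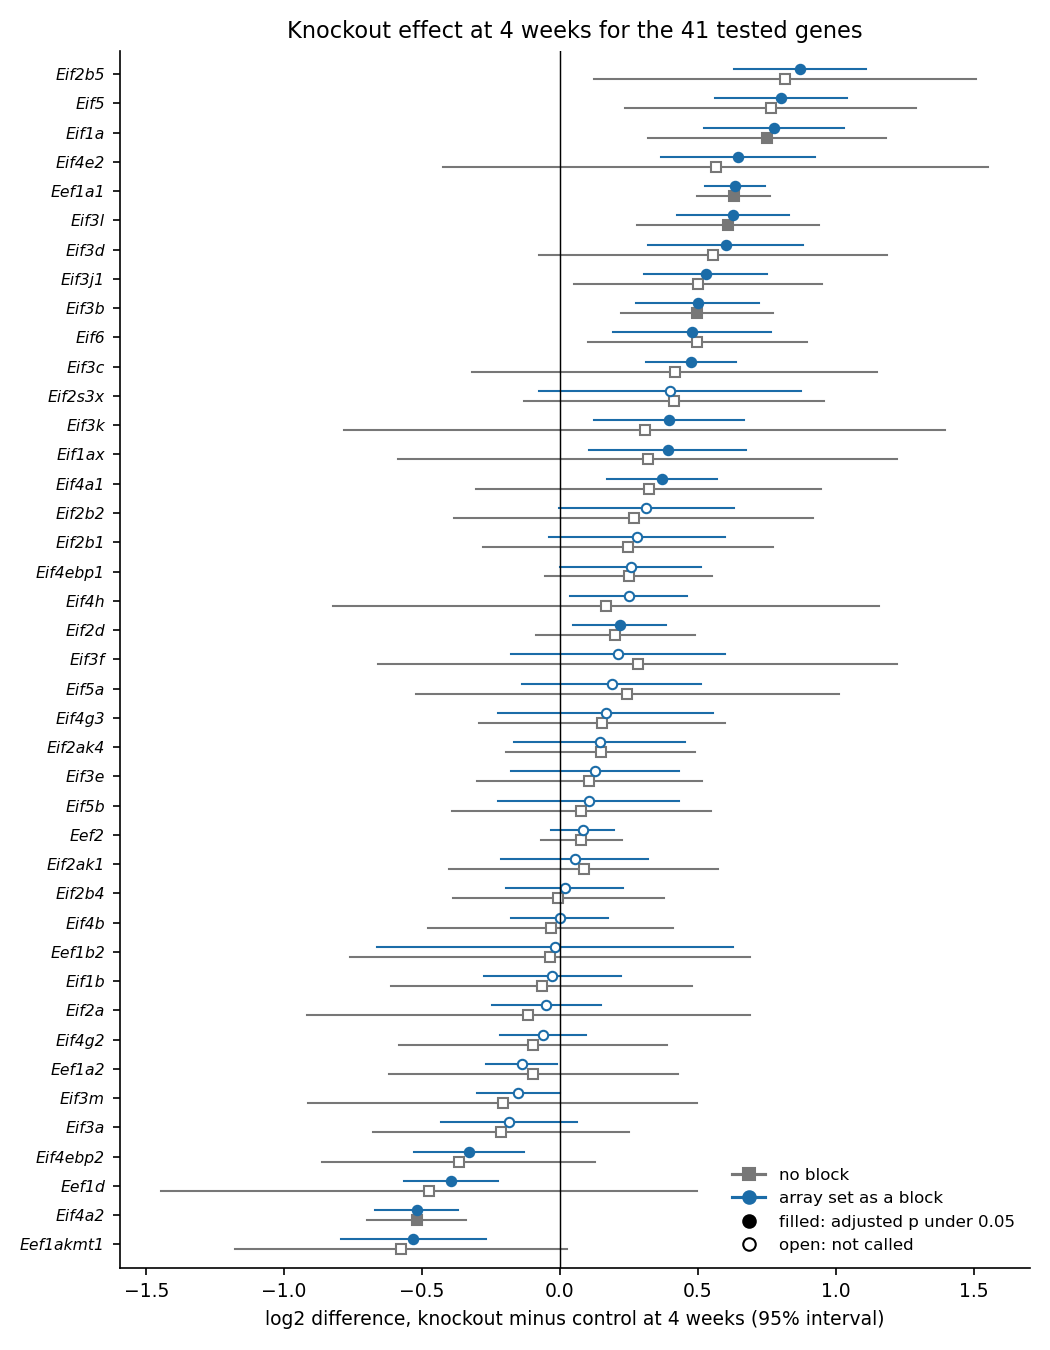
Log2 difference between knockout and control hearts at 4 weeks for each of the 41 tested genes, without a block (grey squares) and with a block for the array set (blue circles), with 95% intervals and filled symbols for an adjusted p under 0.05. The block shortens most intervals, and its 19 filled circles are 15 above 0 and 4 below 0.

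Markers of cell types moved in the same comparison, and the counts here are from the fit without the block unless the block is named. All 9 tested fibroblast and matrix markers were higher in knockout hearts at 4 weeks, and the summed intensity of that list ran from 12593 to 14904 on control arrays and from 27341 to 36634 on knockout arrays. Of 7 tested cardiomyocyte markers 5 were lower, with sums of 56155 to 60004 on control arrays and 44603 to 47788 on knockout arrays. The skeletal muscle list rose through Myl1 (1 of 2 tested), with sums of 903.6 to 1989 against 6171 to 7039, the smooth muscle list rose in 2 of 6, and the endothelial list in 1 of 6. None of the macrophage, lymphocyte, erythroid and adipocyte markers was called. With the block the fibroblast, cardiomyocyte and skeletal muscle counts were as before, 3 of 6 smooth muscle markers rose, Eng and Vwf rose and Tie1 fell among 6 endothelial markers, and the erythroid marker Hba-a1 rose (0.44 ± 0.14, adjusted p = 0.0205). No marker of any list was at the floor on all arrays of a group. In whole hearts fewer cells of a type and less RNA per cell cannot be told apart, and the part of these markers in the results below was not tested.

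Eef1a1, the widely expressed carrier of aminoacyl-tRNA, gave the smallest p among the 41 genes. Its intensity at 4 weeks was 4048, 4296 and 4369 on the control arrays and 6412, 6178, 6195, 7211 and 6867 on the knockout arrays. At 2 weeks it was 5529, 5320 and 5412 on the control arrays and 6378, 6656, 6216 and 5856 on the knockout arrays. The control hearts at 4 weeks were the lowest of the 4 groups, and knockout and control arrays did not overlap at either age. The log2 difference at 4 weeks was 0.63 ± 0.06 (SE), a 1.55-fold difference on the log2(intensity + 16) scale, with an adjusted p of 2.57e-05. With the block it was 0.64 ± 0.05 (adjusted p = 2.38e-07), and it was 0.63 within set 1 and 0.64 within set 2. The call held in each of 16 alternative analyses and without any single array. The probe sequences were not used here, and whether this probe set also reads Eef1a2 or copies of Eef1a1 was not tested.

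Eef1a2 encodes the paralog of muscle and nerve. Its intensity at 4 weeks was 6431, 4466 and 4817 on the control arrays and 6177, 6170, 4049, 3989 and 4293 on the knockout arrays. At 2 weeks it was 3661, 3758 and 5930 on control arrays and 3882, 3569, 6481 and 6429 on knockout arrays. In every group the arrays of set 1 were the high ones, and knockout and control overlapped at both ages. The log2 difference at 4 weeks was -0.10 ± 0.24 (adjusted p = 0.904), and with the block it was -0.14 ± 0.06 (adjusted p = 0.0904).

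**Figure D3:**
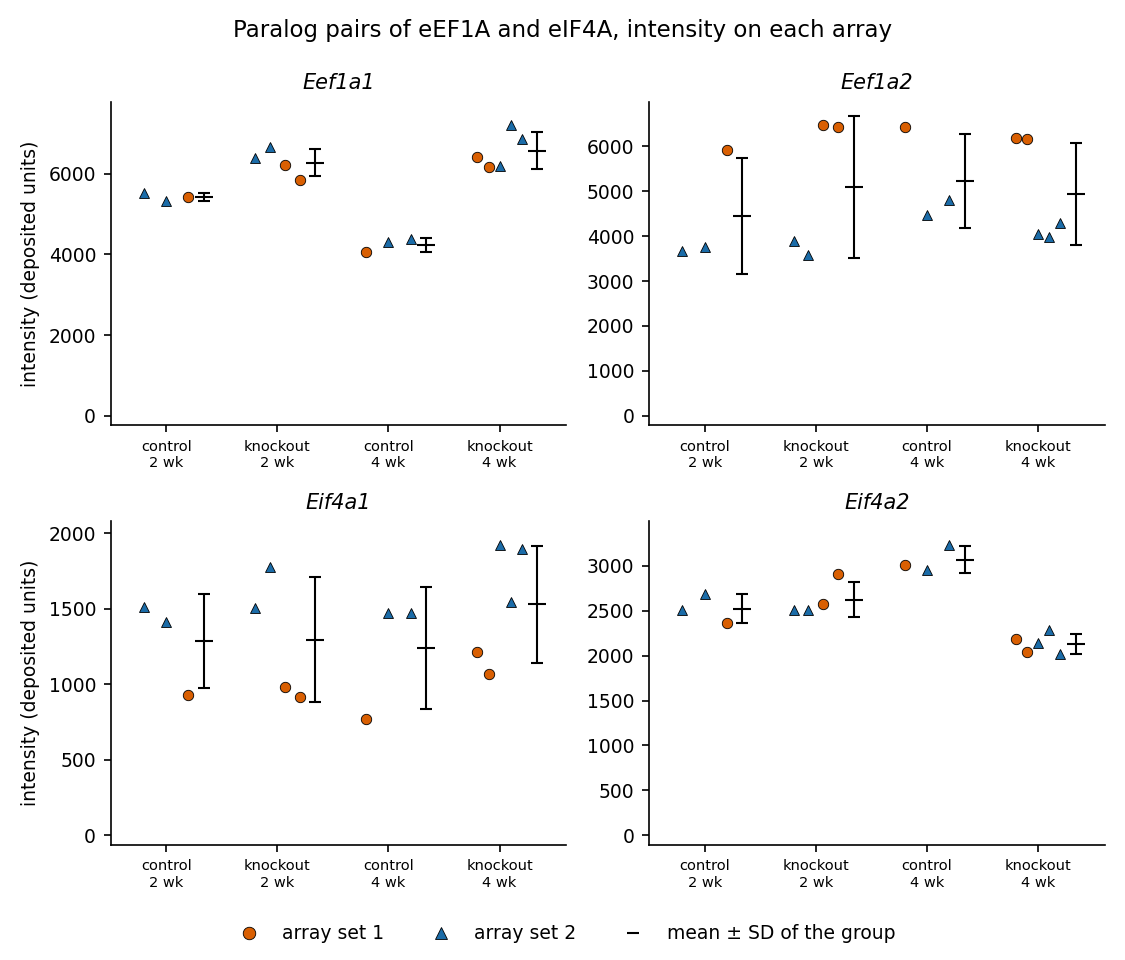
Intensity on each array (vertical axis, deposited units) of the paralogs Eef1a1 and Eef1a2 and Eif4a1 and Eif4a2 in the 4 groups (horizontal axis), with orange circles for array set 1, blue triangles for array set 2 and a bar for the group mean ± SD. Eef1a1 runs from 4048 to 4369 on control arrays and from 6178 to 7211 on knockout arrays at 4 weeks, Eif4a2 runs from 2950 to 3235 and from 2014 to 2287, and Eef1a2 and Eif4a1 divide by array set.

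Of the other tested genes with Eef symbols none was called without the block. With it 2 were called, Eef1d and Eef1akmt1, of which the second is named for a methyltransferase and not an elongation factor. Without the block 11.2% of all tested genes were called, and with it 35.5%. Eef2, the translocase, had an intensity of 3188 ± 92.7 (SD, n = 3) for controls and 3368 ± 205.3 (SD, n = 5) for knockouts at 4 weeks, with arrays at 3263, 3084 and 3218 against 3166, 3173, 3398, 3450 and 3654. These overlapped, and the log2 difference was 0.08 ± 0.07 (adjusted p = 0.62), with a 95% interval from -0.07 to 0.22. Eef1d, a subunit of the exchange factor eEF1B, differed by -0.48 ± 0.45 without the block (adjusted p = 0.658) and passed the test with it (-0.40 ± 0.08, adjusted p = 0.00116), with -0.25 within set 1 and -0.48 within set 2. Eef1akmt1, named for a lysine methyltransferase of eEF1A, differed by -0.58 ± 0.28 without the block (adjusted p = 0.244) and passed the test with it (-0.53 ± 0.12, adjusted p = 0.00323), with -0.18 within set 1 and -0.73 within set 2. Eef1b2, another eEF1B subunit, gave opposite values in the sets, 1.05 in set 1 and -0.60 in set 2, and -0.04 ± 0.34 overall. Eef2k, the kinase that inactivates eEF2, was dim, at 140.4, 147.8 and 107.5 on control arrays and 100.9, 99.38, 119.3, 103.4 and 117.7 on knockout arrays at 4 weeks. Its 2 brightest arrays of these 8 were controls, the groups overlapped, and the log2 difference was -0.25 ± 0.15 (adjusted p = 0.439). Eef1g was at the floor of the scale or below 9 on all 15 arrays and has no level here.

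Among the factors that select the start codon, Eif1a and Eif5 had the largest differences at 4 weeks. Eif1a encodes a form of eIF1A, which helps the small subunit scan. Its intensity was 142.3, 161.4 and 188.9 on the control arrays and 238.4, 217.2, 342.9, 335.1 and 315.5 on the knockout arrays at 4 weeks. The groups did not overlap, and the 2 knockout arrays of set 1 were the lower ones. At 2 weeks Eif1a was at 162.8, 183.0 and 119.1 on control arrays and 154.7, 195.3, 118.0 and 149.5 on knockout arrays, fully overlapping. The log2 difference at 4 weeks was 0.75 ± 0.20 (adjusted p = 0.0262), and with the block 0.78 ± 0.12 (adjusted p = 0.000109), with 0.62 within set 1 and 0.86 within set 2. The call without the block was lost without control replicate 1 or 2 or knockout replicate 3, 4 or 5 (log2 differences from 0.66 to 0.85 over all single arrays left out, highest adjusted p = 0.0945). It was also lost after quantile normalization, median scaling or averaging of probe sets, with the replicate number as a block and with only the compared groups in the fit. A dimmer Eif1a probe set gave 0.55 ± 0.54.

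Eif5, the GTPase activator that acts on eIF2 at the start codon, was at 381.7, 403.3 and 496.0 on control arrays and 533.2, 510.0, 935.7, 896.6 and 913.8 on knockout arrays at 4 weeks. The groups did not overlap, and the 3 knockout arrays of set 2 were far above all others. Its log2 difference of 0.76 ± 0.25 did not pass the test without the block (adjusted p = 0.061) and passed with it (0.80 ± 0.11, adjusted p = 4.74e-05), with 0.43 within set 1 and 1.01 within set 2. Eif1ax, the X-linked eIF1A gene, differed by 0.32 ± 0.42 without the block and passed the test with it (0.39 ± 0.13, adjusted p = 0.0332). That call was lost with inferred sex (adjusted p = 0.0771) or quantile normalization (0.0846) added. A dimmer Eif1ax probe set gave 0.04 ± 0.44, and -0.04 ± 0.12 with the block (adjusted p = 0.875 over all probe sets). Eif1b differed by -0.07 ± 0.25 (adjusted p = 0.942). In all, 6 of the 41 genes had groups without overlap at 4 weeks (Eef1a1, Eif1a, Eif3b, Eif3l, Eif4a2 and Eif5), where 17.4% of all tested genes had.

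Of the 9 tested genes of eIF2 with its loading factors, its exchange factor and its kinases, none was called without the block and 2 rose with it. Of all tested genes 11.2% were called without the block, and 23.3% were called higher with it, so this count is near the background. Eif2b5, the catalytic subunit of eIF2B, was at 256.3, 362.2 and 489.5 on control arrays and 431.4, 452.9, 856.6, 886.1 and 728.1 on knockout arrays at 4 weeks. The ranges overlapped across sets, but within each set every knockout array was above every control array. The log2 difference was 0.82 ± 0.32 (adjusted p = 0.13) and with the block 0.87 ± 0.11 (adjusted p = 2.32e-05), with 0.75 within set 1 and 0.94 within set 2. The other tested eIF2B subunits gave 0.25 ± 0.25 (Eif2b1), 0.27 ± 0.30 (Eif2b2) and -0.01 ± 0.18 (Eif2b4), none called with or without the block. Of the factors that load the initiator tRNA, Eif2d differed by 0.20 ± 0.13 without the block and passed the test with it (0.22 ± 0.08, adjusted p = 0.0456). Its call was lost with inferred sex added (0.21, adjusted p = 0.0796) or quantile normalization added (0.11, adjusted p = 0.284). Eif2a differed by -0.11 ± 0.37 (adjusted p = 0.928). The dim Eif2s2, the beta subunit of eIF2, gave 0.20 ± 0.39 (adjusted p = 0.903).

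The gamma subunit of eIF2 has an X-linked and a Y-linked gene. Eif2s3y was between 0.95 and 24.38 on all 7 arrays inferred female and between 245.8 and 594.5 on all 8 inferred male. At 4 weeks it was at 7.92, 245.8 and 360.1 on control arrays and 7.91, 4.15, 0.95, 6.52 and 435.4 on knockout arrays, so that 4 of 5 knockout arrays and 1 of 3 control arrays were low. Its log2 difference was -1.79 ± 1.26 (adjusted p = 0.548). Eif2s3x was at 1420, 788.8 and 945.9 on control arrays and 1818, 1597, 1470, 1229 and 894.7 on knockout arrays at 4 weeks. Its 2 lower control arrays and its lowest knockout array were those inferred male. The difference of Eif2s3x was 0.41 ± 0.25 (adjusted p = 0.396), 0.40 ± 0.22 with the block (adjusted p = 0.184) and 0.10 with array set and inferred sex as blocks (adjusted p = 0.506).

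None of the 4 eIF2 alpha kinase genes was called at 4 weeks in either fit. Eif2ak1, the heme-regulated kinase, differed by 0.09 ± 0.23 at 4 weeks and Eif2ak4, the kinase that senses uncharged tRNA, by 0.15 ± 0.16. Eif2ak2, the kinase activated by double-stranded RNA, was dim, at 73.79, 97.54 and 96.46 on control arrays and 73.05, 73.53, 78.52, 69.23 and 68.50 on knockout arrays at 4 weeks. The 2 control arrays of set 2 were the highest and the third lay within the knockout range (-0.24 ± 0.14, adjusted p = 0.394). Eif2ak3, the kinase of the endoplasmic reticulum, was at 24.42, 14.26 and 17.31 on control arrays and 24.05, 31.13, 14.63, 34.04 and 30.19 on knockout arrays, near the bottom of the scale and overlapping (0.29 ± 0.21, adjusted p = 0.562).

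The scaffold complex eIF3, which holds the small subunit and other factors together, is the largest role here with 10 tested subunits. At 4 weeks 2 of the 10 rose without the block, where 6.63% of all genes were called higher. With the block 6 rose, where 23.3% of all genes were called higher, and none fell in either fit. Eif3b, a core subunit, was at 870.7, 696.5 and 848.3 on control arrays and 1124, 1081, 1095, 1101 and 1296 on knockout arrays at 4 weeks, with no overlap and knockout replicate 5 above the other 4. Its 2-week values were 881.2, 687.9 and 711.5 for controls and 819.8, 906.6, 770.5 and 840.8 for knockouts, overlapping. Its difference was 0.50 ± 0.13 (adjusted p = 0.0224), and with the block 0.50 ± 0.10 (adjusted p = 0.0015), with 0.33 within set 1 and 0.58 within set 2. The call was lost without control replicate 2 (0.40, adjusted p = 0.145) or control replicate 3, after quantile normalization or median scaling, within set 1, with the replicate number as a block and with only the compared groups in the fit. A far dimmer Eif3b probe set gave -0.22 ± 0.35, and the mean of both probe sets gave 0.14, which was not called.

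Eif3l was at 1139, 1268 and 1316 on control arrays and 1591, 1555, 1961, 2087 and 2428 on knockout arrays at 4 weeks. The groups did not overlap, and the 3 knockout arrays of set 2 were the highest. Its 2-week values were 1493, 1270 and 1118 for controls and 1350, 1588, 1284 and 1387 for knockouts, overlapping. Its difference was 0.61 ± 0.15 (adjusted p = 0.0195), and with the block 0.63 ± 0.10 (adjusted p = 0.000102), with 0.46 within set 1 and 0.73 within set 2. The call was lost without control replicate 1 or 2 (0.52 to 0.68 over all single arrays left out, highest adjusted p = 0.0672), after median scaling, with the replicate number as a block and with only the compared groups in the fit. The other 4 subunits that rose with the block were Eif3c (0.47 ± 0.08, adjusted p = 0.00016), Eif3j1 (0.53 ± 0.10, 0.000972), Eif3d (0.60 ± 0.13, 0.00209) and Eif3k (0.40 ± 0.13, 0.0248). Without the block these 4 gave 0.42, 0.50, 0.55 and 0.31, and the Eif3k call was lost when quantile normalization was added to the block (0.26, adjusted p = 0.129). The array sets differed by 1.32 for Eif3k, 0.89 for Eif3c, 0.68 for Eif3d and 0.45 for Eif3j1, and Eif3c ran from 1024 to 2071 on control arrays and from 1379 to 2988 on knockout arrays. The remaining subunits gave -0.21 ± 0.22 (Eif3a), 0.11 ± 0.19 (Eif3e), 0.28 ± 0.44 (Eif3f) and -0.21 ± 0.33 (Eif3m).

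Eif4a2, a helicase of eIF4F, was the 1 gene among the 41 that fell in both fits at 4 weeks. Its intensity was 3009, 2950 and 3235 on the control arrays and 2182, 2044, 2137, 2287 and 2014 on the knockout arrays at 4 weeks. At 2 weeks it was 2510, 2685 and 2366 on control arrays and 2502, 2509, 2573 and 2906 on knockout arrays. Control hearts at 4 weeks were the highest group and knockout hearts at 4 weeks the lowest, with no overlap, while the 2 groups at 2 weeks lay between them and overlapped each other. The difference at 4 weeks was -0.52 ± 0.08 (adjusted p = 0.0011), and with the block -0.52 ± 0.07 (adjusted p = 3.6e-05), with -0.51 within set 1 and -0.52 within set 2. The call held in each of 16 alternative analyses and without any single array.

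Eif4a1, the other helicase paralog, rose with the block. It was at 773.3, 1474 and 1469 on control arrays and 1213, 1069, 1925, 1545 and 1897 on knockout arrays at 4 weeks, where the arrays of set 1 were the low ones and, within each set, every knockout array was above every control array. At 2 weeks it was at 1515, 1415 and 931.9 on control arrays and 1503, 1777, 983.1 and 915.7 on knockout arrays, again with the arrays of set 1 low. The difference at 4 weeks was 0.32 ± 0.29 (adjusted p = 0.63) without the block and 0.37 ± 0.09 (adjusted p = 0.00555) with it, 0.55 within set 1 and 0.27 within set 2, and the call was lost when quantile normalization was added to the block. The intervals of the difference for Eif4a1 and Eif4a2 with the block did not overlap (0.17 to 0.57 against -0.67 to -0.37), and the contrast between the paralogs themselves was not tested.

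Eif4e, which encodes the cap-binding protein, was represented by a dim probe set that ran from 79.37 to 279.3 on control arrays and from 63.16 to 182.8 on knockout arrays at 4 weeks, at 279.3, 116.1 and 79.37 against 182.8, 151.5, 100.7, 63.16 and 88.93. The arrays of set 1 were the high ones in both groups, and the difference was -0.29 ± 0.52 (adjusted p = 0.889). A second, dimmer Eif4e probe set, named here after its values were seen, was at 110.9, 101.5 and 127.8 on control arrays and 54.82, 62.74, 40.64, 45.68 and 44.66 on knockout arrays at 4 weeks, with no overlap. In a fit to all 12422 probe sets, of which 6.27% were called, its difference was -0.98 ± 0.17 (adjusted p = 0.00272), and with the block, where 22.2% were called, its adjusted p was 5.36e-05. At 2 weeks the same probe set averaged 81.6 ± 11.9 (SD, n = 3) for controls and 76.9 ± 12.9 (SD, n = 4) for knockouts. The 2 Eif4e probe sets thus gave different calls, and which of them reads the main transcript was not tested.

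Eif4e2, a cap-binding relative of eIF4E, differed by 0.56 ± 0.46 without the block (adjusted p = 0.571) and passed the test with it (0.64 ± 0.13, adjusted p = 0.00121). It differed by 0.58 within set 1 and 0.66 within set 2. A dimmer Eif4e2 probe set had the same sign and was not called (0.48 ± 0.35, and 0.43 ± 0.19 with the block, adjusted p = 0.127 over all probe sets). The scaffold relatives Eif4g2 and Eif4g3 gave -0.10 ± 0.23 and 0.15 ± 0.21 at 4 weeks, and the helicase cofactors Eif4b and Eif4h -0.03 ± 0.21 and 0.17 ± 0.46, none called in either fit. Of the 3 other Eif4b probe sets, 1 was called in the fit to all probe sets (0.74 ± 0.19, adjusted p = 0.0307) and 2 were not.

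The 4E-BP genes encode the inhibitors of eIF4E. Eif4ebp1 was at 316.3, 295.3 and 362.1 on control arrays and 358.1, 362.4, 330.2, 422.1 and 481.1 on knockout arrays at 4 weeks. At 2 weeks it was at 281.0, 283.0 and 268.7 on control arrays and 294.7, 279.2, 235.4 and 289.4 on knockout arrays. The groups overlapped at each age, and the knockout arrays at 4 weeks were all above those at 2 weeks. The difference from control was 0.25 ± 0.14 at 4 weeks (adjusted p = 0.343) and was not called with the block (0.26 ± 0.12, adjusted p = 0.114). Eif4ebp2 differed by -0.37 ± 0.23 without the block (adjusted p = 0.41) and passed the test with it (-0.33 ± 0.09, adjusted p = 0.0116). It differed by -0.37 within set 1 and -0.32 within set 2. Its other probe sets were not called in either fit to all probe sets. The brighter of them gave -0.04 ± 0.33, and -0.10 ± 0.10 with the block (adjusted p = 0.538). The dimmer gave 0.06 ± 0.40, and 0.11 ± 0.28 with the block (adjusted p = 0.838). The dim Eif4enif1, which encodes a partner that carries eIF4E into the nucleus, gave -0.20 ± 0.44 (adjusted p = 0.918).

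Of the late-acting factors, Eif6, which keeps the large subunit from joining too early, was at 604.5, 356.2 and 458.4 on control arrays and 761.0, 708.8, 714.3, 551.6 and 587.2 on knockout arrays at 4 weeks. Within each set the knockout arrays lay above the controls, and 2 of them lay below the control array of set 1. Its difference was 0.50 ± 0.19 (adjusted p = 0.106), and with the block 0.48 ± 0.13 (adjusted p = 0.0108), with 0.27 within set 1 and 0.58 within set 2. Eif5a, which eases stalled peptide bonds and carries hypusine, was at 1298, 729.2 and 655.7 on control arrays and 1383, 1484, 706.4, 654.6 and 1124 on knockout arrays. The arrays of set 1 were high in both groups, and the difference was 0.24 ± 0.36 (adjusted p = 0.806). Eif5b, the GTPase of subunit joining, gave 0.08 ± 0.22 (adjusted p = 0.914).

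**Figure D4:**
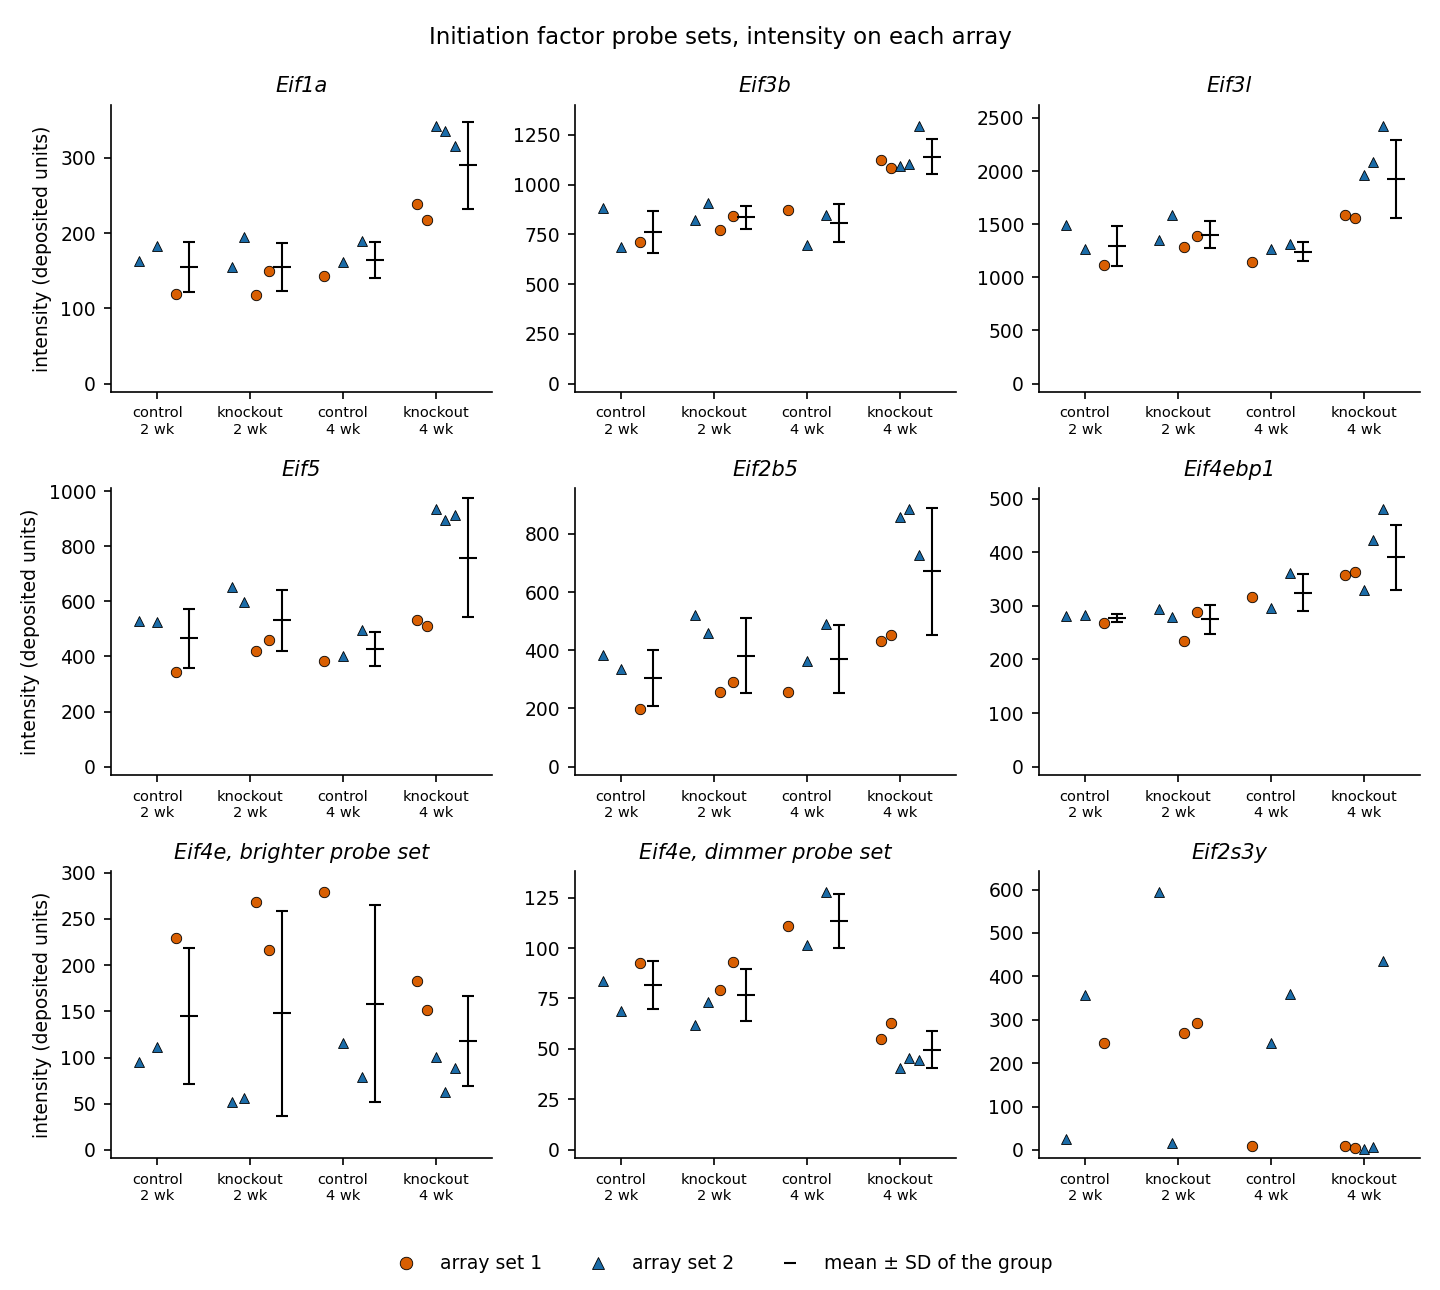
Intensity on each array (vertical axes, deposited units) of 8 genes with Eif symbols in the 4 groups (horizontal axis), Eif4e by both of its probe sets. Orange circles mark array set 1, blue triangles array set 2 and a bar the group mean ± SD (not drawn for Eif2s3y). Eif1a, Eif3b, Eif3l and Eif5 do not overlap between control and knockout at 4 weeks, the dimmer Eif4e probe set runs from 101.5 to 127.8 on control arrays and from 40.64 to 62.74 on knockout arrays, and Eif2s3y lies below 25 or above 245.

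At 2 weeks no gene of the 41 passed the test between knockout and control hearts. None of the 41 was called by limma without or with the block, 1 had an unadjusted p under 0.05 without it and 3 with it, and 0.0202% and 0.0808% of all tested genes were called. Groups did not overlap for 2 of the 41, Eef1a1 and Eef2, where 2.42% of all tested genes had no overlap. Eef1a1 differed by 0.21 ± 0.07 (adjusted p = 1, 95% interval 0.07 to 0.35), and by 0.22 ± 0.05 with the block (adjusted p = 0.218). Eef2 was at 3117, 3087 and 3028 on control arrays and 3517, 3303, 3181 and 3285 on knockout arrays, and differed by 0.11 ± 0.07. Eif4a2 differed by 0.06 ± 0.09 and Eif1a by -0.01 ± 0.21. The median difference over the 41 genes was 0.03 against 0.04 over all tested genes.

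The knockout effect differed between the ages for 2 of the 41 genes, where 1.56% of all tested genes passed the same test. For Eef1a1 the effect at 4 weeks was larger than at 2 weeks by 0.42 ± 0.09 (adjusted p = 0.0338), and for Eif4a2 the difference was -0.58 ± 0.12 (adjusted p = 0.0308). With the block 7 of 41 passed, where 12.5% of all genes did: Eef1a1 (0.41 ± 0.07, adjusted p = 0.00201), Eif1a (0.71 ± 0.17, 0.0137), Eif3c (0.41 ± 0.11, 0.0231), Eif3l (0.46 ± 0.14, 0.0398) and Eif5 (0.52 ± 0.16, 0.0465) were further above control at 4 weeks. Eif4a2 (-0.58 ± 0.10, adjusted p = 0.00172) and Eif4ebp2 (-0.44 ± 0.14, 0.0462) were further below. The other Eif4ebp2 probe sets gave 0.04 ± 0.14 (the brighter) and 0.26 ± 0.41 (the dimmer) with the block (adjusted p = 0.924 and 0.825 over all probe sets). Without the block, the Eef1a1 call was lost without any one of the 6 control arrays, knockout 4-week replicate 5 or knockout 2-week replicate 3 or 4 (0.39 to 0.45, highest adjusted p = 0.113), and without the filter on dim genes. The Eif4a2 call was lost without control 4-week replicate 2 or 3, knockout 4-week replicate 3, any control 2-week array or knockout 2-week replicate 3 or 4 (-0.62 to -0.53, highest adjusted p = 0.107). Both calls were lost after median scaling and with the replicate number as a block.

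**Figure D5:**
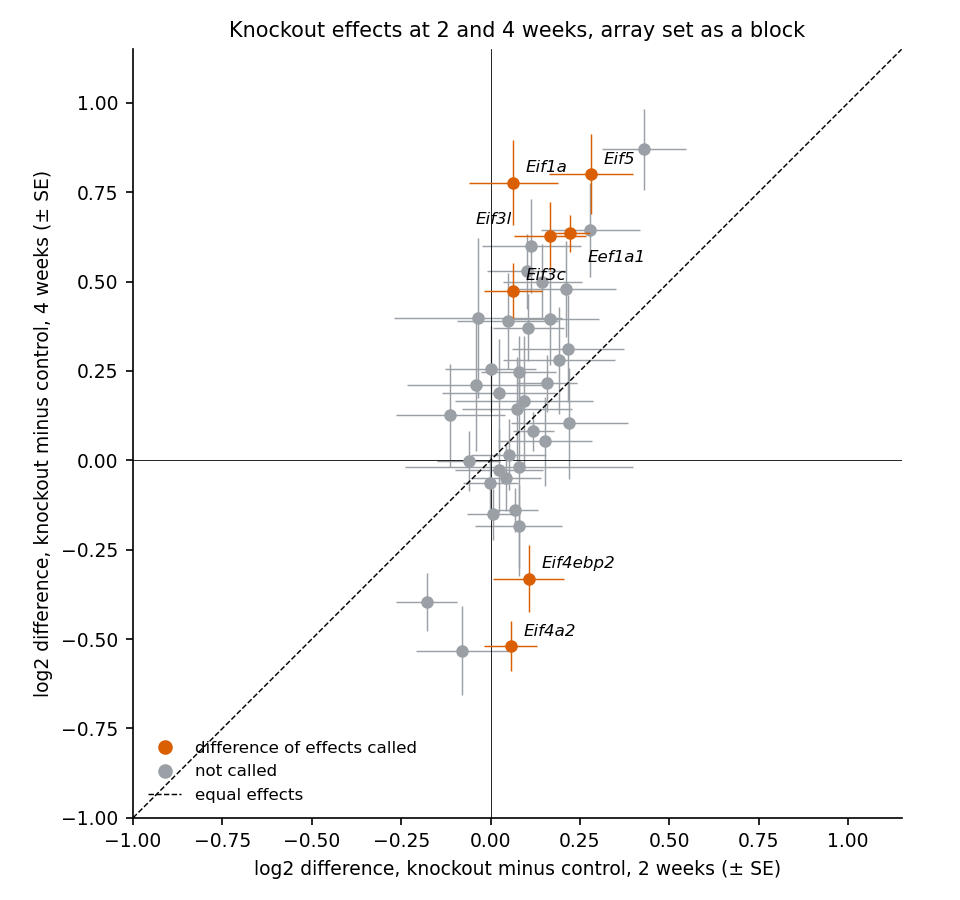
Log2 difference between knockout and control hearts at 2 weeks (horizontal axis) and 4 weeks (vertical axis) for the 41 tested genes with the array set as a block, with bars for the standard error and a dashed line where both are equal. The 7 named genes in orange are those whose effects differed between the ages, 5 above and 2 below the line.

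The comparisons of 4 with 2 weeks share arrays with the comparisons above. In control hearts 1 of the 41 genes changed with age, where 0.727% of all tested genes did: Eef1a1 fell by 0.35 ± 0.07 (adjusted p = 0.0347), from 5420 ± 104.4 (SD, n = 3) to 4237 ± 168.2 (SD, n = 3). In knockout hearts Eef1a1 was at 6277 ± 334.1 (SD, n = 4) and 6573 ± 452.6 (SD, n = 5), a difference of 0.07 ± 0.06 (adjusted p = 0.711). With the block, where 5.92% of all genes were called, Eef1a1 again fell in control hearts (adjusted p = 0.00136), and Eif4a2 (0.28 ± 0.08, adjusted p = 0.0462) and Eef1a2 (0.25 ± 0.07, adjusted p = 0.04) rose. The Eef1a1 call without the block was lost without any 1 of the 6 control arrays or knockout 4-week replicate 1 (-0.38 to -0.32, highest adjusted p = 0.187), and in 5 of 16 other alternatives. Fibroblast and matrix markers moved in the same comparison: 2 of 9 fell without the block (Lum and Col1a1) and 7 of 9 with it, and the summed list went from 18183 to 26776 at 2 weeks to 12593 to 14904 at 4 weeks. Their part in the Eef1a1 result was not tested.

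In knockout hearts 4 of the 41 genes changed between 2 and 4 weeks, where 6.59% of all tested genes did. Eif1a (0.84 ± 0.18, adjusted p = 0.0137), Eif4ebp1 (0.48 ± 0.13, 0.0421) and Eif3b (0.44 ± 0.12, 0.0401) rose, and Eif4a2 fell by 0.29 ± 0.08 (0.0359). With the block 13 of 41 were called, 9 higher and 4 lower, where 25.1% of all genes were, among them Eif2b5 (0.70 ± 0.10, adjusted p = 0.000127), Eif3c (0.44 ± 0.07, 0.000288) and Eif4ebp2 (-0.48 ± 0.09, 0.000752). The other Eif4ebp2 probe sets gave -0.0047 ± 0.0875 (the brighter) and -0.10 ± 0.26 (the dimmer) with the block (adjusted p = 0.982 and 0.878 over all probe sets). Without the block the Eif1a call was lost without knockout 2-week replicate 3 (0.73, adjusted p = 0.0541). The other 3 calls were each lost without any one of the 4 knockout 2-week arrays. Beside these, that of Eif3b was lost without any knockout 4-week array, control 4-week replicate 3 or control 2-week replicate 2. That of Eif4a2 was lost without knockout 4-week replicate 1, 2, 3 or 5, control 4-week replicate 2 or control 2-week replicate 1. That of Eif4ebp1 was lost without knockout 4-week replicate 1, 2, 4 or 5, control 4-week replicate 2 or any control 2-week array. Over all single arrays left out, the highest adjusted p was 0.118 for Eif3b (0.39 to 0.48), 0.125 for Eif4a2 (-0.32 to -0.25) and 0.141 for Eif4ebp1 (0.40 to 0.53). All 4 calls were lost after median scaling and with the replicate number as a block. Markers moved here too: 5 of 7 cardiomyocyte markers fell without and with the block, with sums of 52365 to 56982 at 2 weeks and 44603 to 47788 at 4 weeks. Dcn, Cnn1 and Myl1, of the fibroblast, smooth muscle and skeletal muscle lists, rose in both fits. Postn, Col1a2 and Fn1 also rose with the block, so that 4 of 9 fibroblast and matrix markers were then called higher and 0 lower. C1qa of the macrophage list rose with the block as well. With the block, Cnn1 and Tagln rose and Acta2 fell among 6 smooth muscle markers. The median of that list was -0.045 without the block and -0.087 with it. Among 6 endothelial markers Vwf rose with the block, and Tie1, Cdh5 and Kdr fell. The part of these markers was not tested.

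Other genes of translation were taken from lists grouped by function. Over all genes at 4 weeks 11.2% were called without the block, 6.63% higher and 4.61% lower. At 4 weeks without the block, 1 of 8 tested genes of termination, recycling and hypusine synthesis rose, Dohh (0.97 ± 0.18, adjusted p = 0.00236), which completes the hypusine on eIF5A. In the integrated stress response downstream of eIF2, 3 of 9 rose and none fell: Atf3 (1.80 ± 0.28, adjusted p = 0.00079), Ddit3 (0.58 ± 0.15, 0.0192) and Ppp1r15a (0.69 ± 0.19, 0.028), the last of which encodes a phosphatase subunit that reverses eIF2 alpha phosphorylation. Of the translation factors of mitochondria 3 of 5 fell and none rose: Mtrf1l (-1.34 ± 0.27, adjusted p = 0.00522), Mtif2 (-1.05 ± 0.23, 0.00862) and Gfm1 (-0.49 ± 0.15, 0.0481). These carry out the termination, initiation and elongation steps in the organelle. Aars, an aminoacyl-tRNA synthetase (0.53 ± 0.13, 0.0138), was the 1 of 17 cytosolic synthetases called, and Dap (1.74 ± 0.53, 0.0472) the 1 of 8 poly(A)-binding proteins and translation regulators. None of 12 genes of mTOR and MAP kinase input was called.

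With the block, where 35.5% of all genes were called (23.3% higher and 12.2% lower), 5 of the 8 termination genes rose, 7 of the 17 synthetases rose and none fell, and the integrated stress response and mitochondrial lists again had 3 of 9 higher and 3 of 5 lower. The stress response count is near that background. Pabpc1, a poly(A)-binding protein, then rose by 0.72 ± 0.09 (adjusted p = 1.01e-05), Pabpc4 fell (-0.38 ± 0.09, adjusted p = 0.00558), and 2 of the 12 kinase input genes were called, Pdpk1 higher and Sesn1 lower, a smaller share than over all genes. At 2 weeks none of the genes of these 6 lists was called in either fit.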

How the data were processed

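Total RNA from hearts of 4 groups (3 to 5 arrays each) was labelled with biotin and read on 15 one-colour arrays. The authors deposited 1 intensity per probe set and array, as one table. For the software and scaling behind those intensities no source used here gives a name, and array medians differed by 1.248-fold at most. The deposited scaling was kept. Probe sets were named through the platform annotation: of 12422, 10833 had a single symbol, 396 several and 1193 none. Each gene was taken from its brightest single-symbol probe set, and the dimmest 40% of genes were left out, which left 4950. Values were tested as log2(intensity + 16), so fold changes of dim genes are understated.

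limma 3.58.1 in R 4.3.3 (lmFit, eBayes with trend) fitted 1 coefficient per group over all 15 arrays, and p-values were adjusted by Benjamini-Hochberg over all tested genes, with calls at 0.05. All adjusted p in the text are limma's. The script was tested on simulated data. Fits to dim genes used all 8251 genes. The members and lists were chosen with earlier results of these data known, as was the division into array sets. Values by array are given for each member called in any of 5 comparisons and for a set of core factors, and for each other list up to 3 called genes of smallest p; further genes and the second probe sets were named after their values were seen. Inferred sex is from Xist against Uty. Alternatives were scaling, pseudocount, filter, choice of probe set, array set, sex, replicate number, array weights, the groups fitted and each array left out. The number of arrays limits the precision. Promoter sequences are from RefSeq, assembly GRCm38.p6.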

Additional observations from a re-analysis of the deposited data

Results flagged for a closer look

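Of 98 combinations of gene and group of 4 or 5 arrays, 6 held an array far from the others by Dixon's criterion at 95%, where chance alone gives about 1 in 20. Eef1g was at 8.29 on knockout 2-week replicate 1 and at 7.24 on knockout 4-week replicate 4, with the other arrays of each group at the floor of 0.95. Eif2s3y was at 435.44 on knockout 4-week replicate 5, against 0.95 to 7.91 on the other 4, and this was the 1 array of the group inferred male. Eif3b was at 1296.34 on knockout 4-week replicate 5, against 1080.6 to 1124.09. Eif5b was at 166.98 on knockout 2-week replicate 3, against 215.43 to 217.85. Eif6 was at 519.82 on knockout 2-week replicate 1, against 563.73 to 571.89.

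The knockout effect differed between 4 and 2 weeks in a direct limma test of the difference for Eif4a2 (-0.5762, adjusted p = 0.0308) and Eef1a1 (0.4198, adjusted p = 0.0338).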

How the results depend on the processing

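At 4 weeks 5 of the tested genes were called; the count was 3 after quantile normalization, 2 with arrays scaled to one median, 3 with the mean of all probe sets, 2 with only the groups compared, 12 with array weights, 19 with the array set as a block, 16 with quantile normalization added, 17 with inferred sex added, 12 within set 1 (where the lone control array is assumed to vary like the others) and 16 within set 2. Without single arrays it was 2 to 6. For the difference of the effects (2 called) it was 0 with one median, 1 without the filter, 7 with the array set, 6 with quantile normalization added, 5 with sex added, 8 with array weights and 0 to 2 without single arrays. With age in control hearts (1 called) it was 0 with one median, without the filter, within set 1 or with only the groups compared, 3 with the array set, 2 with quantile normalization or with sex added, 3 within set 2, 2 with array weights and 0 to 1 without single arrays. With age in knockout hearts (4 called) it was 0 with one median, 2 with the mean of probe sets, 13 with the array set, 15 with quantile normalization added, 12 with sex added, 11 within set 1, 8 within set 2, 11 with array weights, 1 with only the groups compared and 0 to 4 without single arrays. At 2 weeks the count was 0 in these alternatives. The cause of these shifts was not tested.

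With the replicate block the counts were 2 at 4 weeks, 0 for the difference, 0 with age in control hearts and 0 in knockout hearts, and with the replicate block and the array set 18, 8, 3 and 12. A pairing of the arrays by number was not apparent: 7 of 19 same-numbered pairs correlated above 0.1, and 6 of 15 arrays correlated best with their own number. The array set was not removed before these correlations, so they cannot exclude a pairing. No called gene changed sign. Eef1a1 and Eif4a2 at 4 weeks kept their calls in all 16 alternatives, with 0.55 to 0.70 and -0.60 to -0.48. Probe sets near the floor of 0.95 carry no usable level.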
